A study of Mus musculus with 2 samples.

Results

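Among 23221 barcodes of a single 10x library with 2000 to 75000 unique molecular identifiers (UMIs) on genes, more than 500 detected genes and a mitochondrial share below 5%, 2420 (10.4%) carried at least 20% of their gene UMIs on haemoglobin genes. A further 14350 (61.8%) had a globin share below 5%, and 6451 lay between the limits. The study removed barcodes with 5% or more haemoglobin, so the globin-rich barcodes entered none of its cell types. They were selected here on the share of UMIs from genes whose symbols start with Hba- or Hbb-, whatever their hashtag, so their globin content is a description and was not tested. Alas2, an erythroid marker, was not part of that selection.

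The library is described as a pool of sorted CD31+ MbTomato+ cells from livers and hearts of C57BL/6 pups aged P6-P7. From single-cell RNA of sorted liver and heart endothelium, the study reports strong deletion of floxed Notch1 with either reporter allele. Per the labels, pups of all 6 groups received a single 40 mg/kg dose of 4-hydroxytamoxifen on postnatal day 3, with tissue taken 3 days later. The groups were Cdh5-CreERT2 with the iSuRe-HadCre allele, Cdh5-CreERT2 with the iSuRe-Cre allele, and a control, each as liver and as heart. Each was marked by a hashtag antibody. These group names do not say which pups carried floxed Notch1, so no group is taken here to be free of that mutation. Cdh5-CreERT2 places the tamoxifen-dependent recombinase under an endothelial promoter. The labels give neither the control genotype nor the number of pups in a group, tissue suspensions went through red blood cell lysis before sorting, and each group is 1 sample, so no p-value is given between groups.

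Red blood cells form through erythroblast stages that first divide and then cease to divide, fill with haemoglobin, and discard nucleus and organelles. In mice, primitive red cells of the yolk sac carry embryonic globin chains, while definitive red cells made in the fetal liver and later the marrow carry adult chains. The liver of a newborn mouse still makes red cells. Sorting for an endothelial surface protein and a membrane reporter is meant to leave erythroid cells out.

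The adult genes Hba-a1 (chr11:32283511-32284465, plus strand) and Hba-a2 (chr11:32296489-32297298, plus strand) encode alpha chains, and Hba-x (chr11:32276400-32278116, plus strand) encodes the embryonic zeta chain (all coordinates GRCm38). The adult beta genes are Hbb-bs (chr7:103826534-103828096, minus strand) and Hbb-bt (chr7:103812524-103813996, minus strand). The embryonic beta-type genes are Hbb-bh1 (chr7:103841637-103843164, minus strand) and Hbb-y (chr7:103851749-103853216, minus strand). The adult pairs could hardly be told apart by coding sequence: Hba-a1 and Hba-a2 differed at 1 of 426 coding bases and Hbb-bs and Hbb-bt at 1 of 441, so the split of UMIs within each pair is uncertain. Embryonic and adult chains were far apart, with 74.4% identity between the Hbb-bs and Hbb-y coding sequences and 61.7% between Hba-a1 and Hba-x. All are protein-coding genes.

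The promoters of the adult Hbb-bs and the embryonic Hbb-y, the pair whose UMIs separate adult from embryonic barcodes, are shown from 83 to 10 bases before the transcript start, as RefSeq gives it on GRCm38.p6 (minus strand). For Hbb-bs the RefSeq start lies inside the gene span given above, which comes from the GRCm38 annotation. The stretch shown for Hbb-bs therefore falls within that span. Capitals mark the CCAAT box and the TATA-type box (TATAA or CATAA).
Hbb-bs, chr7:103827938-103828011: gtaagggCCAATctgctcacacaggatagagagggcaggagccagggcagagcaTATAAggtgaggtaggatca
Hbb-y, chr7:103853217-103853290: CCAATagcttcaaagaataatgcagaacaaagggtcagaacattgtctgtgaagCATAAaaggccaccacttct
In the 250 bases before the start, both strands searched, CCAAT began at -76 in Hbb-bs and at -83 in Hbb-y, and a TATA-type box began at -29 in both, with a further CATAA at -158 in Hbb-y. CCACACCC, the letters bound by Klf1-type factors, began at -93 in Hbb-bs and was not among the letters of the Hbb-y window. AGATAA or TGATAA began at -210 in Hbb-bs and at -162 in Hbb-y. Over 32851 promoters of that length, 33.8% held CCAAT, 39.5% TATAA or CATAA, 16.6% AGATAA or TGATAA, and 3.20% CCACACCC. These matches are descriptions of the letters and not binding sites.

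The globin-rich barcodes had a median of 4229.5 gene UMIs (2001 to 71278) and 1427.5 genes, and a median globin share of 30.2%. Most lay near the lower limit: 1193 barcodes lay at 20 to 30%, 480 at 30 to 40%, 249 at 40 to 50%, 152 at 50 to 60%, 95 at 60 to 70%, 93 at 70 to 80%, 133 at 80 to 90% and 25 above 90%. The lower limit cut a continuous distribution, which had a smaller second maximum at 80 to 90%. The 50 barcodes just inside it, at 20.0 to 20.3% globin, had a median of 4470.5 UMIs, and 10 of them were in clusters named erythroid-like. The 50 just outside, at 19.7 to 20.0%, had a median of 3646.5 UMIs, and 14 were in such clusters. In 24194 near-empty barcodes of 10 to 100 UMIs, which stand for the RNA free in the suspension, 5.71% of gene UMIs came from globin genes.

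**Figure D1:**
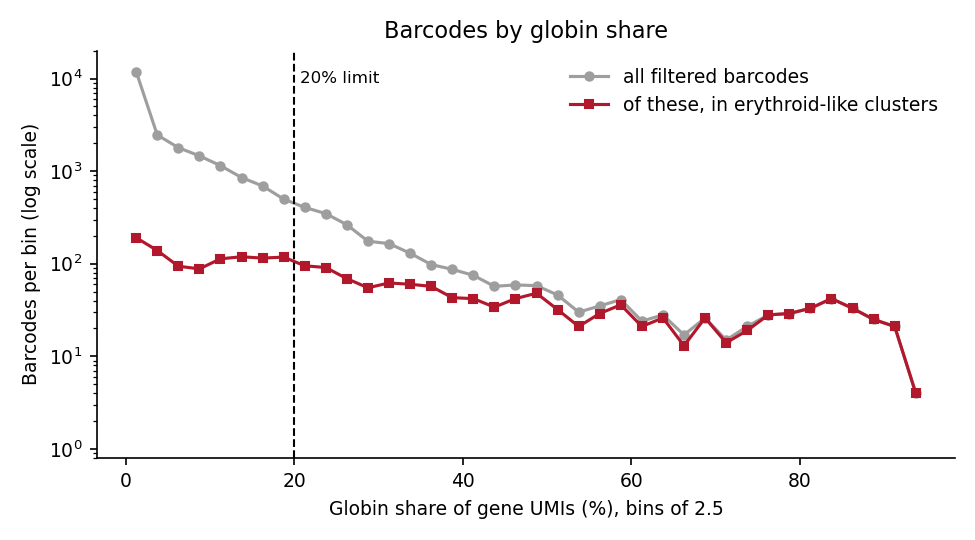
Number of filtered barcodes (vertical, log axis) in bins of 2.5 percentage points of globin share of gene UMIs (horizontal axis), for all 23221 barcodes in grey and for those in erythroid-like clusters in red. The dashed line is the 20% limit, to the right of which lie the 2420 globin-rich barcodes, and above 80% both lines coincide.

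The label of erythroid barcodes held for fewer than all of them. Clustering of all 23221 barcodes without the globin genes gave 51 clusters, of which 4 met the erythroid list, and these held 1150 of the 2420 globin-rich barcodes (47.5%). The other 1270 (52.5%) fell in clusters led by genes of other cells: 203 in hepatocyte-like, 142 in neutrophil-like, 142 in mesenchymal-like, 42 in macrophage-like, 21 in keratinocyte-like and 7 in chondrocyte-like clusters. Another 63 lay in a cluster that met the cardiomyocyte list but was also led by Myog and Mylpf, genes of skeletal muscle, and 650 lay in 24 clusters that met no list. One of the latter, with 95 globin-rich barcodes, was led by Ccl21a, a lymphatic chemokine, Fabp4 and Gpihbp1, both made by capillary endothelium. The erythroid-like share was 26.0% of barcodes at 20 to 30% globin and reached all of those above 80%. The barcodes are therefore called globin-rich below, and erythroid-like where the cluster is meant. At a coarser and a finer clustering (resolution 0.5 and 2), 1071 and 1276 of them were erythroid-like.

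Of the 4 erythroid-like clusters, the largest held 536 globin-rich barcodes, and the next 268 and 207. The last held 139, and all of its barcodes were globin-rich, with a median globin share of 82.6%. It was led by Tmcc2, Marchf3, Tent5c and Trim10, the last an erythroid ring-finger protein.

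Depth and sample tags divided the erythroid-like barcodes. The 460 with at least 10000 UMIs had a median of 26049.5 UMIs and 72.2% globin, whereas the 690 with fewer had a median of 3188.5 UMIs and 33.1% globin. The matrix also holds 5 cell multiplexing tags, CMO301 to CMO305, to which the labels give no group. In 392 of the 460 deep barcodes (85.2%) a single such tag made up at least 80% of the multiplexing UMIs, and the median share of the top tag was 97.7%. The tags were CMO302 in 144 of these barcodes, CMO301 in 115, CMO304 in 101, CMO303 in 24 and CMO305 in 8. Among the 690 shallower erythroid-like barcodes 6 reached that share, with a median of 40.9%, and among the 1270 in other clusters 45 did, with a median of 42.0%. In barcodes below 5% globin the median was 43.3% and 3173 (22.1%) reached it. Among the barcodes below 5% globin with 10000 or more UMIs, 2858 of 4609 did (62.0%), with a median of 96.3%. A dominant tag was thus common there, as in the deep erythroid-like barcodes. It was less common in globin-rich barcodes of other clusters at the same depth, at 43 of 176 (24.4%), with a median of 43.5%. By hashtag, 344 of the 460 deep erythroid-like barcodes were negative and 99 (21.5%) were called for 1 of the 6 groups. The labels tie no multiplexing tag to a group, so a dominant tag does not place a barcode among the described pups. What the 5 multiplexing tags marked was not tested.

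**Figure D2:**
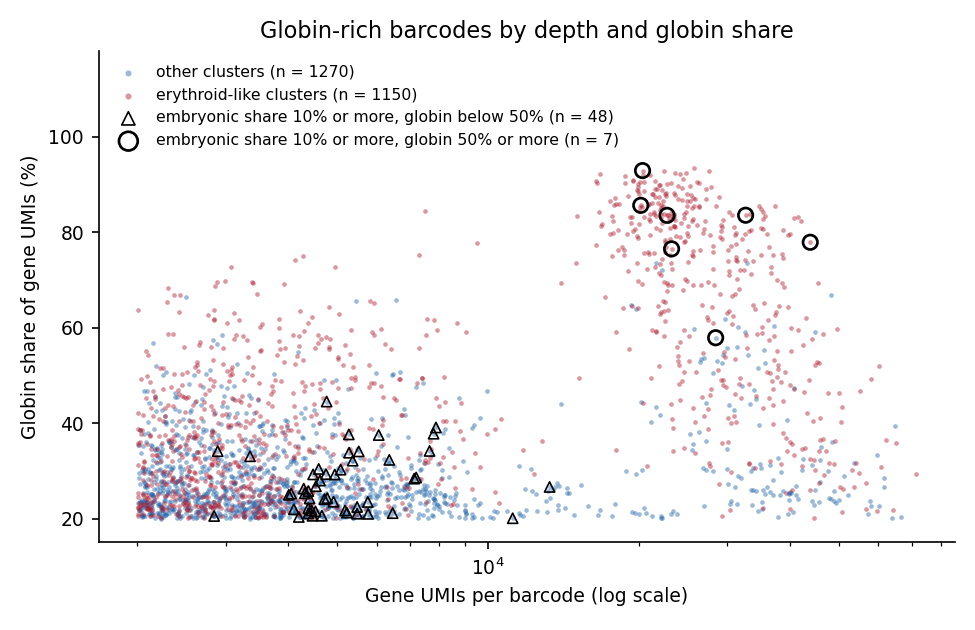
Gene UMIs (horizontal, log axis) against globin share in percent (vertical axis), each point 1 of the 2420 globin-rich barcodes, red for erythroid-like and blue for other clusters, with black triangles (48) and circles (7) for barcodes with 10% or more embryonic globin below and above a globin share of 50%. The points fall into a shallow and a deep cloud, and the 7 circled barcodes lie in the deep one, at 20159 to 43895 UMIs.

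To describe what the globin-rich barcodes held besides haemoglobin, UMIs were summed over barcodes and expressed per 1000000 UMIs outside the globin genes (non-globin CPM), and set against the 14350 barcodes below 5% globin. A gene was called at a ratio of 2 or more with 10 CPM added to both sides, among 13999 genes with at least 200 UMIs over both sets. By this rule 408 genes were higher (2.91%) and 405 lower (2.89%), and the median log2 ratio of all genes was -0.23. With CPM of all gene UMIs, globin included, 176 were higher and 3786 lower, and as the mean over barcodes 378 were higher and 64 lower, so the balance of higher and lower genes depends on the scale. No test stands behind these calls, since all barcodes came from 1 library. Intervals are exact 95% intervals and cover counting error only, and in pooled barcodes a smaller erythroid fraction and less RNA per cell cannot be told apart.

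Genes of late erythroid cells were higher almost throughout: 17 of 18 measured list members, with a median log2 ratio of 4.03, against 2.91% of all genes. Alas2, the first enzyme of haem synthesis in erythroid cells (chrX:150547375-150570638), stood at 929 against 6.02 CPM, a ratio of 154 (144 to 166). Over single barcodes its quartiles were 0 and 1127 CPM in the globin-rich set, and 0 and 0 below 5% globin. It had a UMI in 1794 of the 2420 globin-rich barcodes (74.1%), and in 5.40% of those below 5% globin, whose median depth was 5717.5 UMIs. Slc4a1, the band 3 anion exchanger (chr11:102348824-102366203), reached 690 against 3.63 CPM, and Hemgn, an erythroid nuclear protein (chr4:46393989-46413506), 864 against 9.59 CPM. In the near-empty barcodes these genes stood at 70.1 CPM for Alas2, 47.1 for Slc4a1 and 62.1 for Hemgn, between both sets. Isg20 was the late erythroid gene not called, with a log2 ratio of 0.80.

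All 8 genes of haem synthesis were higher, with a median log2 ratio of 3.87. Of the 20 red cell membrane and skeleton genes 18 were higher, with a median of 3.72; the exceptions were the water channel Aqp1, at -0.51, and Add1, a spectrin-binding protein, at 0.53. Rhd, a carrier of the Rhesus antigen, stood at 661 against 9.17 CPM, and Kel, the Kell blood group protease, at 385 against 4.12 CPM. Early erythroid genes were higher in 13 of 14, with a median of 3.59, and Aqp1 was again the exception.

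Genes of iron handling moved less evenly, with 7 of 16 higher and a median of 0.77. Slc25a37, the mitochondrial iron carrier mitoferrin-1, was among the highest genes of all, at 1313 against 22.4 CPM. Of the 9 redox and carbonic anhydrase genes 8 were higher, with a median of 2.76. Gpx1, glutathione peroxidase, had the highest level among the 15 leading genes, 6949 against 337 CPM, and Blvrb, biliverdin reductase B, stood at 2336 against 98.3 CPM. Sod1, the cytosolic superoxide dismutase, was the exception, with a log2 ratio of 0.00. Car2, the carbonic anhydrase that interconverts carbon dioxide and bicarbonate in red cells, stood at 2502 against 65.7 CPM. Genes of organelle and protein clearance were higher in 7 of 11, with a median of 1.37.

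Others among the 15 highest were Trim10 at 342 against 1.84 CPM, Tspo2, an erythroid relative of the mitochondrial translocator protein, at 270 against 4.36 CPM, and Gm16867 at 522 against 9.09 CPM.

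Transcription factors and cell cycle genes showed smaller ratios. Of 18 erythroid transcription genes 9 were higher and none of the measured ones lower, with a median of 1.08. S phase genes were higher in 2 of 25, with a median of 0.49, and G2/M genes in 9 of 27, with a median of 0.66. None of the 8 progenitor genes was called. Kit, the stem cell factor receptor, had a log2 ratio of -0.90, and Myb, a regulator of progenitor growth, -0.71. In the list of globin switching and fetal genes 2 of 11 were higher and 2 lower.

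Among the 15 lowest genes, Ibsp, bone sialoprotein, stood at 16.6 against 108 CPM, and Sftpc, a surfactant protein of lung alveolar cells, at 3.77 against 47.3 CPM. The Sftpc ratio turned round at a globin limit of 10%, to a log2 ratio of 0.78. The netrin receptor Unc5c stood at 43.3 against 148 CPM, the proteoglycan Vcan at 81.3 against 225 CPM and the laminin receptor subunit Itga6 at 44.6 against 127 CPM. Csmd1, Slfn5, Gpc6, Hmcn1, Diaph2, Prkg1, Plcb4, Peg3, Pde3a and Zfpm2 lay between these, with log2 ratios of -1.38 to -1.33.

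Markers of the sorted and of other cell types were present in the globin-rich barcodes, and their part in the ratios above was not tested. The 10 endothelial markers summed to 1295 non-globin CPM (1276 to 1314) against 2121 (2113 to 2129) below 5% globin, and 5 were lower. Erythroid-like barcodes alone held 966 CPM and near-empty barcodes 2123 CPM. Cdh5, the endothelial cadherin whose promoter drives the recombinase, had a UMI in 36.3% of the globin-rich erythroid-like barcodes, in 54.7% of the globin-rich barcodes of other clusters and in 58.0% of those below 5% globin. The 11 hepatocyte markers summed to 1990 CPM against 3465, and to 267 in erythroid-like barcodes. The 8 neutrophil markers summed to 2266 against 3254 CPM, and to 235 in erythroid-like barcodes. The 10 macrophage markers summed to 155 against 304 CPM, and the 7 mesenchymal markers to 936 against 1372 CPM. The 6 lymphocyte markers were low throughout, at 18.5 against 22.2 CPM, and 1 of them was at 0 UMIs in the globin-rich set. None of the 3 transgene features was called.

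**Figure D3:**
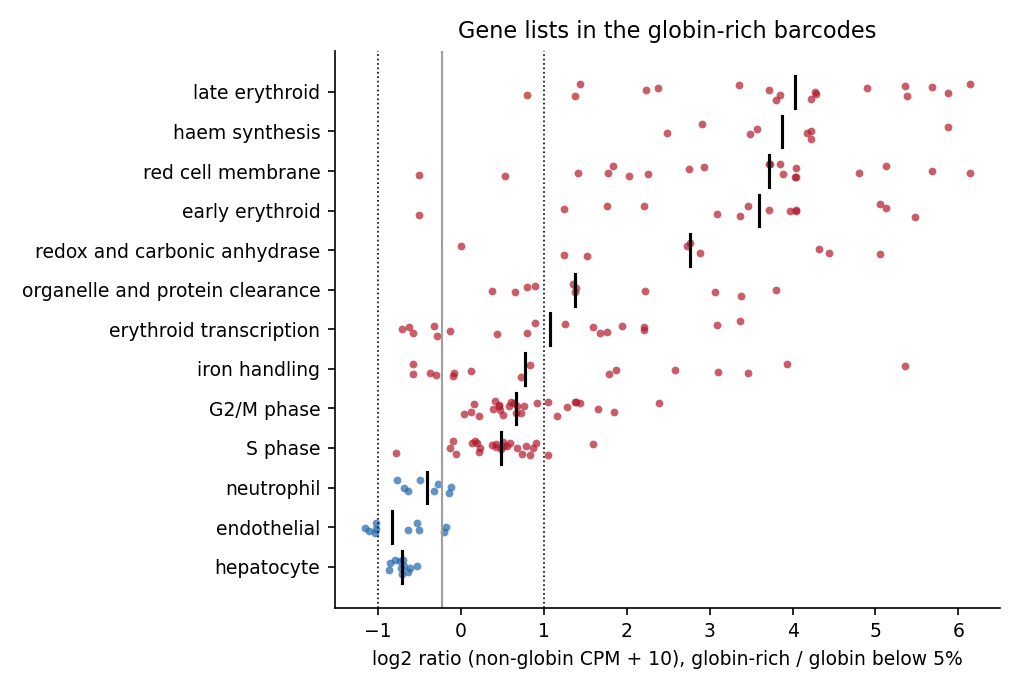
Log2 ratio of non-globin CPM with 10 CPM added (horizontal axis), globin-rich barcodes against barcodes below 5% globin, with a point for each measured gene and a black bar for the median of each list (red for medians above 0, blue below). The grey line is the median of all genes (-0.23) and the dotted lines are the limits of the calls, and the late erythroid list has a median of 4.03 against -0.83 for the endothelial list.

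Within clusters of other cells, the globin-rich barcodes carried non-globin erythroid RNA as well. In the hepatocyte-like cluster with the most of them, the early and late erythroid genes summed to 6962 non-globin CPM, against 819 in barcodes of the same cluster below 5% globin, and Alas2 stood at 433 against 15.2 CPM. The hepatocyte list itself stood at 26420 against 22119 CPM there, so the cluster's own genes were present at a similar level. The erythroid sum was 6978 against 736 CPM in the mesenchymal-like cluster, 5398 against 1015 CPM in the neutrophil-like cluster with the most, 4755 against 450 CPM in the cluster with Myog and Mylpf, and 4722 against 834 CPM in the Ccl21a cluster. Hashtag calls differed as well, where a doublet holds more than 1 hashtag above background. Doublets made up 23.1% of globin-rich barcodes in other clusters, 5.30% of the erythroid-like ones and 13.0% of barcodes below 5% globin. Negative calls, which cannot be doublets, made up 52.0%, 69.0% and 53.3% in the same order.

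Relative to globin, Alas2 lay between 8.83 and 12.3 UMIs in 10000 in the sets given next, while other erythroid genes were less even. It had 10.7 UMIs per 10000 globin UMIs (10.5 to 10.9) in erythroid-like globin-rich barcodes and 8.83 (8.50 to 9.18) in those of other clusters. Barcodes below 5% globin had 12.3 (11.5 to 13.1), and near-empty barcodes 11.6 (8.86 to 14.9).

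Erythroid stage was described by setting the 334 erythroid-like barcodes with at least 60% globin beside the 532 with 20 to 40%. The bands are ranges of a continuous share. Of 3283 genes with at least 200 UMIs, 475 were higher at high globin (14.5%) and 892 lower (27.2%), with a median log2 ratio of -0.41. Depth differed between the bands, since 88.0% of the upper and 13.2% of the lower band had 10000 or more UMIs. Among barcodes of at least that depth, 294 against 70, 409 of 2393 genes were higher (17.1%) and 498 lower (20.8%), of which 390 and 433 were called in the same direction in the whole bands.

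Late erythroid genes were higher in 18 of 18, with a median of 2.52, and genes of organelle and protein clearance in 10 of 10, with a median of 2.19. Bpgm, which makes the 2,3-bisphosphoglycerate that lowers the oxygen affinity of haemoglobin, had the highest log2 ratio, 3.81. It stood at 93.5 non-globin CPM at 20 to 40% globin, 221 at 40 to 60%, 517 at 60 to 80% and 3314 at 80 to 100%. Tmcc2 stood at 135, 447, 949 and 3729 CPM in the same bands, and the ubiquitin ligase Mkrn1 at 249, 549, 1219 and 5271 CPM. Others among the 10 highest were Xpo7, a nuclear export factor, with a log2 ratio of 3.70, the poly(A) polymerase Tent5c with 3.59, Slfn14 with 3.48, Tcp11l2 with 3.33, the growth arrest gene Gadd45a with 3.26 and Ncf4 with 3.20. Of the haem synthesis genes 7 of 8 were higher, of the iron genes 7 of the 7 (of 16 listed) that reached 200 UMIs, of the membrane genes 19 of 20 and of the redox and carbonic anhydrase genes 7 of 8. Early erythroid genes were higher in 10 of 13, with a median of 1.49. In deep barcodes alone the counts were 5 of 8 for haem synthesis, 7 of 7 for iron, 15 of 19 for membrane, 7 of 8 for redox and carbonic anhydrase, 9 of 10 for clearance and 8 of 12 for early erythroid genes.

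Alas2 was higher in each successive band, at 531, 1156, 2579 and 5782 CPM. Tfrc, the transferrin receptor that brings in iron, stood at 506, 830, 1524 and 1258 CPM, so its highest value was at 60 to 80% globin. Klf1, the erythroid activator of adult beta globin, stood at 211, 299, 485 and 388 CPM and followed the same course. The intervals of the upper 2 bands did not overlap for Tfrc (1452 to 1598 and 1166 to 1355 CPM), and met at their ends for Klf1 (444 to 527 and 338 to 444 CPM).

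S phase genes were lower in 11 of 22 and higher in none of those measured, with a median of -0.99. Pcna, the sliding clamp of DNA polymerase, stood at 357, 361, 265 and 29.2 CPM through the bands, and Mcm6, a subunit of the replicative helicase, at 157, 150, 77.5 and 5.47 CPM. Mcm4, another subunit, stood at 128 CPM in the lowest and 7.29 CPM in the highest band. In deep barcodes alone, 14 of 19 S phase genes were lower and 17 of 17 late erythroid genes higher. G2/M genes did not share that direction, with 4 of 26 higher and none lower. Among them Ube2c, a mitotic ubiquitin-conjugating enzyme, had a log2 ratio of 2.17, and the proliferation marker Mki67 one of 1.27.

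**Figure D4:**
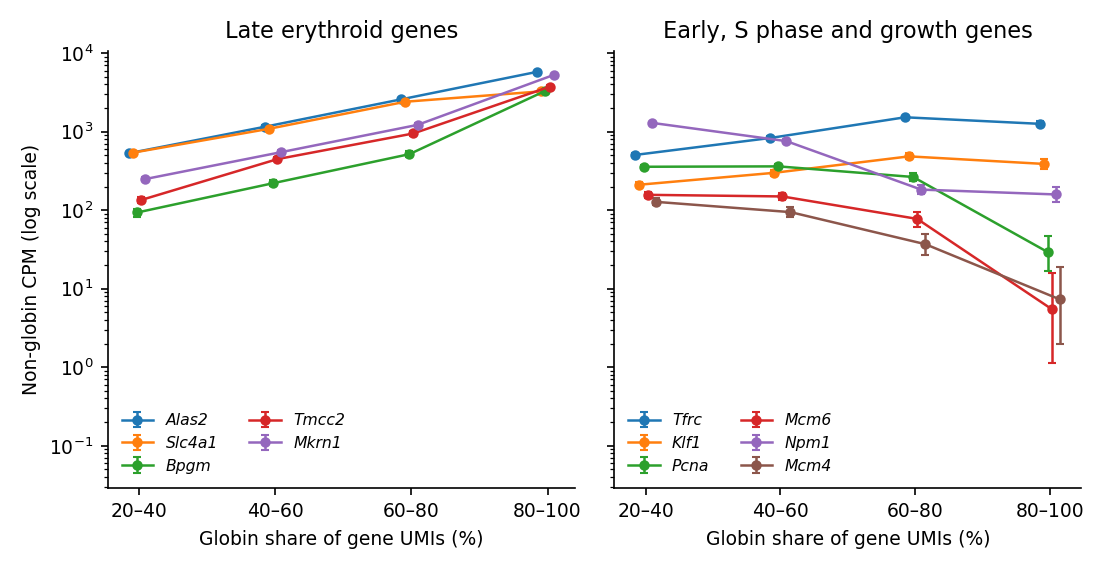
Non-globin CPM (vertical, log axis) of 11 genes in globin-rich erythroid-like barcodes, in 4 bands of globin share in percent (horizontal axis), with exact 95% Poisson intervals. Bpgm goes from 93.5 to 3314 CPM between the lowest and the highest band, and Pcna from 357 to 29.2 CPM.

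Among the 10 lowest genes, Npm1, a nucleolar protein of ribosome assembly, stood at 175 against 1296 CPM, and the mitochondrial chaperonin Hspe1 at 69.3 against 508 CPM. The nucleosome-binding Hmgn1 had a log2 ratio of -2.70 and the cell cycle inhibitor Cdkn1c one of -2.67. Robo2, Nts, Tenm3, Col1a2, Basp1 and Peg3 were also among them, with 8 to 32 UMIs each in the upper band. All 6 stood at 71.3 CPM or more in near-empty barcodes. Mesenchymal markers were lower in 4 of 4 and endothelial markers in 3 of 8, and in deep barcodes alone in 3 of 3 and 0 of 2. The part of free RNA in these ratios was not tested. Bcl11a, a repressor of embryonic and fetal globin, stood at 7.23 against 81.0 CPM. It was the 1 lower gene among 13 measured erythroid transcription genes. In deep barcodes alone, 0 of 11 measured genes of that list were lower. The lower level of Bcl11a was thus not called there, where it was either not lower or had too few UMIs to be measured. Sox6, which acts with Bcl11a in definitive erythroid cells, had a log2 ratio of 1.46.

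Adult chains made up nearly all haemoglobin. Of 12249331 globin UMIs in the globin-rich barcodes, Hbb-bs took 43.0%, Hbb-bt 21.3%, Hba-a1 20.1% and Hba-a2 14.6%. The alpha-type genes together took 34.9% of globin UMIs, and over barcodes the alpha share had a median of 35.0% with quartiles of 32.8 and 37.2%. The embryonic genes Hbb-y, Hba-x and Hbb-bh1 took 0.733, 0.240 and 0.0544%, and Hbb-bh2 had 6 UMIs. Outside the Hba- and Hbb- names, the theta globin genes Hbq1b and Hbq1a had 1942 and 164 UMIs.

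The embryonic genes summed to 1.03% of globin UMIs (1.02 to 1.03), against 0.815% in barcodes below 5% globin and 0.655% (0.588 to 0.728) in near-empty barcodes. This average stood for few barcodes. No embryonic globin UMI was found in 1838 (76.0%), and 2333 lay below 1%, 28 at 1 to 5%, 4 at 5 to 10% and 55 at 10% or more. Of the 55, 54 had at least 20% and 16 at least 50%.

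Of these 55 barcodes, 7 were also rich in haemoglobin, with a globin share of 50% or more. They held 20159, 20325, 22746, 23226, 28432, 32627 and 43895 gene UMIs, and in that order 85.6, 92.9, 83.5, 76.5, 57.9, 83.5 and 77.9% globin. Their embryonic share was 54.9, 57.3, 58.0, 65.7, 57.5, 63.0 and 62.9% of globin UMIs. All 7 were deep and all held more embryonic than adult globin. Hbb-y took 44.3 to 46.5% of their globin UMIs and Hba-x 10.1 to 18.2%, whereas Hbb-bh1 took 1.04% at most and Hbb-bs 0.242 to 8.67%. In each a single multiplexing tag made up 93.4 to 99.2% of the multiplexing UMIs. Their hashtag UMIs numbered 29 to 60, beside a median of 40 in all globin-rich barcodes. Whether these 7 barcodes came from the described pups was not tested. Without these 7 barcodes the embryonic share of the rest was 0.287%, so they decide the pooled value, and it then lay below that of near-empty barcodes.

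**Figure D5:**
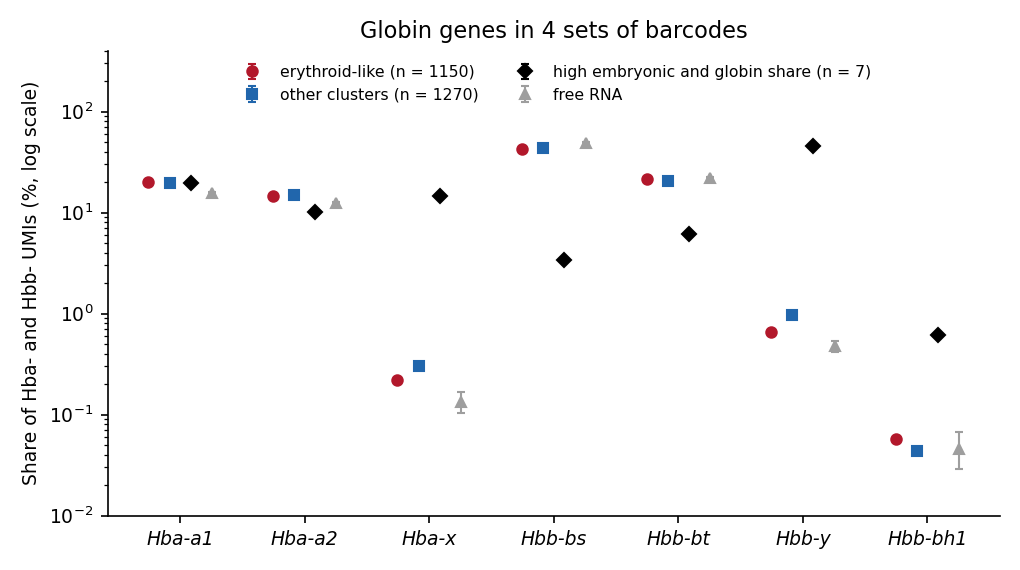
Share of all Hba- and Hbb- UMIs in percent (vertical, log axis) for 7 globin genes, pooled over the globin-rich erythroid-like barcodes, those of other clusters, the 7 barcodes with high embryonic and globin shares (which also count in the first 2 sets) and near-empty barcodes (free RNA), with exact 95% binomial intervals. The 7 barcodes stand apart at Hba-x and Hbb-y, which are higher, and at Hbb-bs and Hbb-bt, which are lower.

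The other 48 held 20 to 45% globin, with a median of 4773.5 gene UMIs, and 40.5% of their globin UMIs were embryonic. The median share of their top multiplexing tag was 44.4%. By cluster, 17 of the 55 lay in an unnamed cluster led by neural genes, 16 in mesenchymal-like clusters, 8 in the cluster with Myog and Mylpf, and 8 in erythroid-like clusters. Against the 2333 barcodes below 1%, 116 of 7258 genes were higher in the 55 (1.6%) and 462 lower (6.37%). Among the 10 highest were Hsd3b6, a steroid dehydrogenase, at 378 against 14.3 CPM, Nudt4, a phosphohydrolase, at 1940 against 318 CPM, Pdzk1ip1 at 268 against 20.4 CPM, and Nrxn3, Ina, Crabp1, Dcx, Tagln3, Neurod6 and Ank3, with log2 ratios of 1.77 to 2.89. Most UMIs of Hsd3b6, Nudt4 and Pdzk1ip1 in the 55 came from the 7 barcodes with 50% globin or more, so these levels do not describe the other 48. The neural list had 2 of 4 measured genes higher and 1 lower. Of the 151 Nrxn3 UMIs, 139 came from 1 barcode, the one of the 7 with 28432 UMIs, which was not in an erythroid-like cluster. Among the 10 lowest were the neutrophil genes Ngp, Camp, S100a9, Cstdc4 and Stfa1, the hepatocyte gene Ttr, and Specc1, E2f2, Gmpr and Slc2a1. All 11 hepatocyte markers and 6 of 7 neutrophil markers were lower. Late erythroid genes were lower in 12 of 18, with a median of -1.27, early erythroid genes in 9 of 14, haem synthesis genes in 5 of 8, and membrane genes in 10 of 20, and none of these lists had a gene that was higher. The sets differed in make-up, since 8 of the 55 but 1127 of the 2333 were erythroid-like. The part of this difference in the ratios was not tested.

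Within erythroid-like clusters, the 6 barcodes of that kind with at least 50% globin could be set beside 319 barcodes of at least 60% globin and below 1% embryonic share. Alas2 stood at 3144 against 3630 non-globin CPM, Bnip3l, a mitophagy receptor, at 1851 against 1630 CPM, and Epb42, a band 4.2 membrane protein, at 629 against 626 CPM. Slc4a1 stood at 1362 against 2714 CPM, Tfrc at 349 against 1463 CPM and Hemgn at 594 against 2818 CPM. Sox6 had no UMI among 28627 non-globin UMIs of the 6 barcodes, pooled as 1 count, against 949 CPM. At a set limit of 3 UMIs over the 6 barcodes, which is 105 CPM, this would be a 9.06-fold difference. Gmpr, guanosine monophosphate reductase, had none against 1203 CPM, an 11.5-fold difference at the same limit. That limit is not the exact interval used elsewhere and leaves out spread between barcodes, so neither fold value is a firm minimum. Bcl11a had none either, against 7.46 CPM, which lies under the level these 6 barcodes could show. Nudt4 stood at 8663 against 962 CPM, Bpgm at 2969 against 1392 CPM and Pdzk1ip1 at 1572 against 61.6 CPM. Globin share was not matched here, since 4 of the 6 barcodes held over 80% globin. Over all erythroid-like barcodes at 60 to 80% and at 80 to 100% globin, Bpgm stood at 517 and 3314 CPM, Hemgn at 3288 and 1732 CPM, Nudt4 at 936 and 1431 CPM, Alas2 at 2579 and 5782 CPM and Slc4a1 at 2404 and 3261 CPM. Bpgm of the 6 barcodes thus lay between the levels of these bands, and Hemgn and Slc4a1 below and Nudt4 above both. Hsd3b6 stood at 2201 against 59.7 CPM, but 39 of its 63 UMIs were in 1 barcode. Hsd3b6, Nudt4, Pdzk1ip1 and Gmpr were among the extreme genes of all barcodes with 10% or more embryonic share. That set includes these 6 barcodes, so the values of these genes here repeat that ranking and are no separate observation. Relative to globin, the 7 barcodes held 6.63 Alas2 UMIs in 10000 (5.40 to 8.07), against 10.3 in globin-rich barcodes below 1% embryonic share.

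Hashtag calls placed few of the globin-rich barcodes in a group, and few of all filtered barcodes. Of the 2420, 1454 (60.1%) were negative, 355 (14.7%) doublets and 596 (24.6%) singlets, and 15 had 4 hashtag UMIs or fewer. Over all 23221 filtered barcodes, 52.6% were negative, 16.6% doublets and 30.4% singlets. Among the erythroid-like, 794 were negative, 61 doublets and 291 singlets. Of the barcodes called for a group, 212 of 1826 were globin-rich in the control liver (11.6%, exact binomial interval 10.2 to 13.2%), 80 of 1875 in the iSuRe-Cre liver (4.27%) and 56 of 678 in the iSuRe-HadCre liver (8.26%). In the hearts they were 62 of 714 in the control (8.68%), 56 of 850 with iSuRe-Cre (6.59%) and 130 of 1108 with iSuRe-HadCre (11.7%, interval 9.90 to 13.8%). Erythroid-like barcodes made up 148 of the 212 in the control liver, 40 of 80 and 17 of 56 in the other livers, and 11 of 62, 40 of 56 and 35 of 130 in the hearts, in the same order.

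The control liver calls rested on few hashtag UMIs, with a median of 4 for its hashtag against 1 over all barcodes. Where a call was required to hold at least 25 hashtag UMIs and 5 times the hashtag's median, 2 of 76 barcodes were globin-rich in the control liver, 71 of 441 in the iSuRe-HadCre heart (16.1%, 5 of them erythroid-like), and 5 to 17 in each of the other groups. The order of the groups changed with this requirement, and with 1 sample for each group the shares give no comparison of genotypes or tissues. Red blood cell lysis and the sort preceded these shares, and their part was not tested.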

How the data were processed

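The deposited matrix holds raw UMI counts, not normalised, for genes, transgenes, hashtags and multiplexing tags over all 2755147 barcodes of 1 library (236562217 gene UMIs). Per the labels and the study's methods, the authors made these counts with Cell Ranger 7.1.0 on GRCm38 with transgenes added, using Ensembl 98 genes; the submitters' processing notes also name Seurat. Gene and hashtag reads are 2 GEO samples of the same library. The counts were used as deposited. No column of a sample outside the series was present (0).

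Groups came from the 6 hashtags that the labels tie to a genotype and tissue, called with HTODemux (Seurat 5.3.0, R 4.3.3; positive quantile 0.99) on barcodes with more than 4 hashtag UMIs. Doublets by hashtag were kept, and leaving them out was an alternative. No expression-based doublet caller was run. The 7 tags without a group (HTO304, HTO308 and 5 multiplexing tags) entered no comparison.

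Barcodes were clustered without Hba- and Hbb- genes (scanpy 1.11.5; 2000 variable genes, 30 principal components, 15 neighbours, Leiden resolution 1). A cluster was named where at least 3 of its 10 leading genes by fold were in 1 marker list. UMIs were summed over barcodes and divided by UMIs outside globin genes. Calls required a ratio of 2, or 0.5, with 10 CPM added, among genes with at least 200 UMIs over both sets. Text names list genes and the 15 or 10 genes with the highest and lowest log2 ratio, and some of these genes are not reported here. With 1 sample for each group there was no test across samples. Intervals are exact 95% Poisson, conditional or Clopper-Pearson intervals (scipy 1.17.1) and cover counting error only. The code was tested on simulated data. The members and lists were chosen with earlier results of these data known. Gene positions came from the GRCm38 annotation, coding identity from its transcripts, and promoters from RefSeq (GRCm38.p6). Python 3.11.15, numpy 2.4.6, pandas 2.3.3, biopython 1.88 and matplotlib 3.10.9 were used.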

Additional observations from a re-analysis of the deposited data

Results flagged for a closer look

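Signals of tags to which the labels give no group were seen in the globin-rich barcodes. In 392 of the 460 deep erythroid-like barcodes a single multiplexing tag (CMO301 to CMO305) made up at least 80% of the multiplexing UMIs, and no comparison of groups used these tags. HTO304 had 25 or more UMIs in 93 globin-rich barcodes, and HTO308 in 169.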

How the results depend on the processing

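The number of globin-rich barcodes was 5612 at a globin share of at least 10% and 747 at 40%. Several alternatives were chosen after seeing the data: the number was 1150 in erythroid-like clusters alone and 636 at 10000 UMIs or more. The embryonic share was 1.06% at 10% globin, 1.10% at 40%, 1.07% at 3000 UMIs, 0.883% without hashtag doublets and 1.02% as the mean over barcodes. With alternatives chosen after seeing the data it was 0.937% in erythroid-like clusters, 0.969% at 10000 UMIs and 0.287% without the 7 embryonic barcodes of 50% globin or more. Genes higher in globin-rich barcodes numbered 260 at 10% globin, 689 at 40%, 176 with CPM of all gene UMIs and 631 in erythroid-like clusters alone. Genes lower numbered 121 at 10% globin, 1488 at 40%, 64 as the mean over barcodes, 3786 with CPM of all gene UMIs, 190 without doublets, 1497 without barcodes holding endothelial or hepatocyte UMIs, 1458 in erythroid-like clusters alone and 1205 at 10000 UMIs. Genes lower at high globin numbered 367 between bands of 50% and 20 to 30%, 2052 at a minimum of 50 UMIs, 2124 with no minimum and 498 at 10000 UMIs. The log2 ratio of Sftpc turned to 0.78 at 10% globin, the sole reversal in 488 alternative values of genes named in the globin-rich and globin-band comparisons, and the genes of the embryonic comparison were not recomputed. The causes of these shifts were not tested, other than the smaller or larger sets that the alternatives construct. No paired analysis was possible because the groups share 1 library, without replicate numbers. Counting error limits values that rest on few UMIs, such as those of the 6 embryonic erythroid-like barcodes.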
